A study of Mus musculus with 15 samples.

Results

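The interferon-stimulated genes described here are 39 genes listed by symbol, each found on the arrays through the probe sets annotated to it. They cover 9 genes of the Ifit, Oas and Mx families, called type I genes below, 8 genes of the guanylate-binding protein and immunity-related GTPase families, called gamma-type genes, and sensors, transcription factors, antiviral effectors, antigen-processing genes and chemokines. Of the 39, 38 had a probe set of their own and were tested among 21439 genes. The probe set of Gbp2 (17403268) is annotated to both Gbp2 and Gbp2b, so its values are given apart and not tested.

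RNA from whole adrenal glands of wild type male C57BL/6J mice was measured on 15 one-colour Affymetrix arrays. The control group is 4 arrays from mice before any dexamethasone, a synthetic glucocorticoid. The withdrawal group is 3 arrays from mice at the moment when 14 days of dexamethasone in the drinking water ended, and the day 3 and day 7 groups are 4 arrays each from mice 3 and 7 days into recovery from the same treatment. The study set out to follow the regrowth of the gland over this time. No vehicle group of the later ages was analysed here, so treatment and time since its start cannot be told apart, and every group carries the same labelled age of 6 weeks. The titles call each array a biological replicate. Whether that means a separate animal or a pool is not stated, and p-values measure the spread between these arrays.

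Interferons are secreted proteins that switch on a shared antiviral programme in the cells they reach. Type I interferons bind the receptor made of Ifnar1 and Ifnar2, whose kinases are Jak1 and Tyk2; a complex that holds Stat2 and Irf9 then binds the interferon-stimulated response element (ISRE). Interferon gamma, made mainly by T cells and natural killer cells, binds the receptor of Ifngr1 and Ifngr2, whose kinases are Jak1 and Jak2; its signal reaches genes through the gamma-activated site (GAS), and it induces Irf1, which also binds ISRE-like sequences. The families overlap in their inducers, so that type I and gamma-type are names of families here and not of a measured signal. Glucocorticoids are known to damp much of this programme in immune cells.

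The 2 kinds of element were searched in RefSeq promoters of build GRCm38.p6, which run from 250 bases before to 50 bases after a start site, and 30 of the 39 genes were in that table. The letters GAAANNGAAA, for the ISRE core on either strand, were present in the promoters of 17 of the 30 genes, or 56.7%, against 3.99% of all 27025 genes. The letters TTCNNNGAA, for the GAS, which read alike on both strands, were present in 10 of the 30, or 33.3%, against 9.55% of all genes. The ISRE letters were in 7 of 7 gamma-type promoters and 3 of 6 type I promoters, and the GAS letters were in 4 of 7 and 1 of 6. Thus 5 genes held both. Of these 2 families, the gamma-type held the ISRE letters more often among the promoters searched. Those of Mx1, Mx2, Oas2 and Iigp1 were not in the table, and the 7 gamma-type promoters include that of Gbp2. The ISRE letters were also in 2 of 2 sensor promoters and in that of Isg15. A match of letters is a description and shows no binding.

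The 160 bases upstream of the start site are shown for 6 genes. Of these, 2 held the ISRE letters alone among the classical type I response (Ifit1, Isg15), and 4 are of the gamma-type family (Gbp3, Gbp7, Igtp and Irgm2). Only Gbp3 of the 6 passed the threshold used below, and not under every alternative setting. Capitals mark the matches to either motif, on either strand, and overlapping matches are joined in 1 run. Each sequence is written 5′ to 3′ along the strand of its gene.

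Ifit1 (chr19:34640729-34640888, plus strand): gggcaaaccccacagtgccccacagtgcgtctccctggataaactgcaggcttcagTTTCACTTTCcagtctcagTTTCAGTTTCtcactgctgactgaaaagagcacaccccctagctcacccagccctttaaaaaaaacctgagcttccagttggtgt
Isg15 (chr4:156200819-156200978, minus strand): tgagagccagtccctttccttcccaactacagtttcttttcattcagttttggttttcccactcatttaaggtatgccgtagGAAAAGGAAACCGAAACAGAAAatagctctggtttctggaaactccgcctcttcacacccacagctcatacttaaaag
Gbp3 (chr3:142559884-142560043, plus strand): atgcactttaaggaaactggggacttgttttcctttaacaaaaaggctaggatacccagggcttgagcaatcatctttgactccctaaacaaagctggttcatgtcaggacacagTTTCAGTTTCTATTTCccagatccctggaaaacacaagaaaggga
Gbp7 (chr3:142530176-142530335, plus strand): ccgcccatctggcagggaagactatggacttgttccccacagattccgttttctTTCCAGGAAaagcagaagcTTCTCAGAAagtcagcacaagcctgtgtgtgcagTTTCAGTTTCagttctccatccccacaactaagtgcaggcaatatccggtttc
Igtp (chr11:58199396-58199555, plus strand): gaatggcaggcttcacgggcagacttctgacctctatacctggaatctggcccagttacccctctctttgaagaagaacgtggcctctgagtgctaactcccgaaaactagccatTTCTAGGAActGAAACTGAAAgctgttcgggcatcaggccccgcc
Irgm2 (chr11:58214817-58214976, plus strand): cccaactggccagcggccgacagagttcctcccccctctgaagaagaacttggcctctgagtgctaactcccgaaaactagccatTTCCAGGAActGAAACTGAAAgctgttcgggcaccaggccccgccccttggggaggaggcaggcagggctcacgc

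Ifit1 held 2 separate ISRE matches, at -104 to -95 and -85 to -76 from the start site, and Isg15 held 3 overlapping ones between -78 and -57. Gbp3 held 2 overlapping ISRE matches and no GAS match, while Gbp7 held 1 ISRE match and 2 GAS matches. Igtp and Irgm2, neighbouring genes on chromosome 11, each held a GAS match shortly before an ISRE match. The longest identical run of their windows, 38 bases from -80 to -43 in Igtp and from -110 to -73 in Irgm2, lies upstream of the ISRE match and ends inside the GAS match. In Bst2, not shown, the GAS match and an ISRE match overlapped.

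Levels are log2 values after robust multi-array averaging (RMA). Array medians lay between 1.55 and 1.64, and a probe set with a mean within 1 log2 unit of the highest median, that is below 2.64, is called near the floor, since little room is left there for a lower value. By this measure 31 of the 38 genes were above the floor over all arrays, and 6 were near it in every group: Mx1, Mx2, Oas2, Oas3, Oasl1 and Gbp5. Thus 5 of the 9 type I genes were near the floor throughout, including both Mx genes. Cxcl10 was near the floor in 3 of the 4 groups. Probe sets differ in brightness, so levels are compared between groups and never between genes.

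Differences were tested with limma in 1 model of the 4 groups and adjusted by the Benjamini-Hochberg method over all 21439 genes, with a threshold of 0.05. Of 228 differences (38 genes in 6 comparisons), 9 passed, and they belonged to 6 genes: Zbp1, Dhx58, Ifih1, Oasl2, Ifit2 and Gbp3. At withdrawal against control 3 genes fell and 0 rose, or 3 of 38 where 4.3% of all genes passed in either direction, 2.49% as rises and 1.81% as falls. At day 3 against withdrawal 1 rose and 2 fell, where 2.25% of all genes passed, 1.37% as rises and 0.886% as falls. At day 7 against withdrawal 3 rose and 0 fell, where 1.88% of all genes passed, 0.98% as rises and 0.905% as falls. None passed at day 3 against control (0.131% of all genes, 0.0886% as rises and 0.042% as falls), at day 7 against control (0.0187%, 0.014% as rises and 0.00466% as falls) or at day 7 against day 3 (0%), where 11, 2 and 11 of the 38 had an unadjusted p under 0.05, against 10%, 5.95% and 7.07% of all genes. In the first 3 comparisons 10, 9 and 12 of the 38 did, against 17%, 13.9% and 13.5%. These comparisons share the withdrawal or the control arrays, so that a low withdrawal level enters both the fall before it and the rise after it.

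A further description is whether the arrays of 2 groups overlap at all in a gene. At withdrawal against control, 10 of the 38 genes had all withdrawal arrays below all control arrays and 2 had them above, where 6.94% and 8.15% of all genes were apart in those directions. The 10 were Zbp1, Dhx58, Gbp7, Gbp3, Xaf1, Isg15, Ifit2, Rsad2, Usp18 and Mx2, the last near the floor, and the 2 were Oasl2 and Ifih1. At day 3 against withdrawal 3 were apart upward and 4 downward (6.39% and 5.73% of all genes), and at day 7 against withdrawal 10 upward and 2 downward (6.46% and 5.89%). Against control, 0 were apart upward and 7 downward at day 3 (2.75% and 2.45%), and 0 in either direction at day 7 (1.75% and 1.4%). The 7 that were lower at day 3 were Irf9, Zbp1, Isg15, Xaf1, Ddx58, Mx2 and Gbp3.

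**Figure D1:**
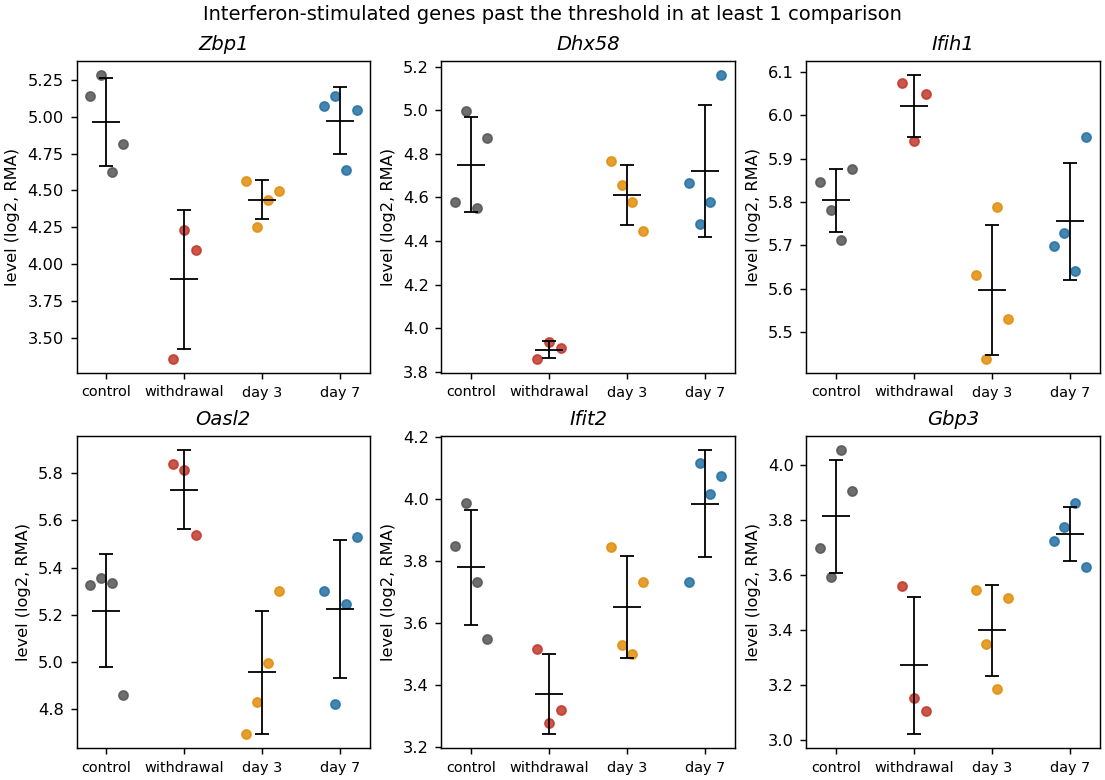
Level (log2, RMA) of the 6 interferon-stimulated genes past the threshold in at least 1 comparison, with 1 point per array and the group mean ± SD (n = 4, 3, 4 and 4). Zbp1, Dhx58, Ifit2 and Gbp3 have their lowest mean at withdrawal, and Ifih1 and Oasl2 have their highest mean there.

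The cytosolic nucleic acid sensors held 6 of the 9 differences that passed. Zbp1, which binds nucleic acid in the Z conformation and can trigger cell death, fell at withdrawal and rose by day 7. Dhx58, which encodes LGP2, a relative of RIG-I that lacks the signalling domain, fell at withdrawal and rose by both day 3 and day 7. Ifih1, which encodes MDA5, the receptor for long double-stranded RNA, fell from withdrawal to day 3.

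Zbp1 measured 5.14, 5.28, 4.63 and 4.82 in the control arrays, 3.36, 4.23 and 4.10 at withdrawal, 4.56, 4.25, 4.44 and 4.50 at day 3 and 5.07, 5.14, 4.64 and 5.04 at day 7. All withdrawal values lay below all values of the other 3 groups, and the day 3 values lay between withdrawal and day 7 without touching either. The group means were 4.97 ± 0.30 (SD, n = 4), 3.90 ± 0.47 (n = 3), 4.44 ± 0.13 (n = 4) and 4.97 ± 0.23 (n = 4). Zbp1 fell by 1.07 ± 0.20 (standard error) at withdrawal against control (limma, adjusted p = 0.00736) and rose by 1.08 ± 0.20 to day 7 (limma, adjusted p = 0.0123), a 2.11-fold rise on the linear scale. Its step from withdrawal to day 3 was 0.54 ± 0.20 (limma, adjusted p = 0.22) and from day 3 to day 7 0.54 ± 0.19 (limma, adjusted p = 0.53), so that neither interval alone passed. Its difference between day 7 and control was 0.01. Withdrawal replicate 1 was the lowest of all, and without it the fall was -0.80 and still passed. With only the arrays of the groups compared in the fit, the adjusted p of the fall was 0.0576 and that of the rise 0.0763.

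Dhx58 measured 4.58, 5.0, 4.55 and 4.87 in the control arrays, 3.86, 3.93 and 3.91 at withdrawal, 4.77, 4.66, 4.58 and 4.44 at day 3 and 4.67, 4.48, 4.58 and 5.16 at day 7. The 3 withdrawal arrays were close together (SD 0.04) and below every other array, while the other 3 groups overlapped. It fell by 0.85 ± 0.15 at withdrawal (limma, adjusted p = 0.00562), a 1.80-fold fall, and this call held with each array left out in turn. It rose by 0.71 ± 0.15 to day 3 (limma, adjusted p = 0.0246) and by 0.82 ± 0.15 to day 7 (limma, adjusted p = 0.0122). Its difference from control at day 3 was -0.14, with a 95% interval of -0.44 to 0.16. The day 3 rise missed the threshold without any 1 of the 3 withdrawal arrays or without day 3 replicate 1 or 2 (limma, adjusted p from 0.0578 to 0.08), and the day 7 rise did so with only the arrays of the 2 groups in the fit (0.07).

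Ifih1 ran the other way. It measured 5.85, 5.78, 5.71 and 5.88 in the control arrays, 6.07, 5.94 and 6.05 at withdrawal, 5.63, 5.44, 5.79 and 5.53 at day 3 and 5.70, 5.73, 5.64 and 5.95 at day 7. The withdrawal arrays were above all control and all day 3 arrays and met the day 7 range at its top. Its difference of 0.22 ± 0.10 at withdrawal against control did not pass (limma, adjusted p = 0.296). It fell by 0.42 ± 0.10 from withdrawal to day 3 (limma, adjusted p = 0.0437). That call was lost without any withdrawal array or without day 3 replicate 1, 2 or 4 (adjusted p from 0.0785 to 0.13), under either median centring of the arrays (0.064 and 0.0797) and with only the 2 groups in the fit (0.152). Ddx58, which encodes RIG-I, the receptor for RNA ends that bear a triphosphate, averaged 6.91 ± 0.19, 6.66 ± 0.06, 6.46 ± 0.16 and 6.88 ± 0.21 (SD) in the 4 groups in order. Its lowest mean was at day 3, where all arrays lay below all control and all day 7 arrays, and its difference from control of -0.45 did not pass (limma, adjusted p = 0.175). Of the 3 receptors of the RIG-I family, Dhx58 thus had its lowest mean at withdrawal, and Ifih1 and Ddx58 had theirs at day 3.

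Of the type I genes 2 passed, in opposite directions relative to withdrawal. Ifit2, whose product binds RNA and restrains translation of viral messages, measured 3.85, 3.99, 3.73 and 3.55 in the control arrays, 3.52, 3.28 and 3.32 at withdrawal, 3.84, 3.53, 3.50 and 3.73 at day 3 and 3.73, 4.12, 4.02 and 4.07 at day 7. All withdrawal arrays were below all control and all day 7 arrays, with control replicate 4 and withdrawal replicate 1 nearly meeting. Ifit2 rose by 0.61 ± 0.13 from withdrawal to day 7 (limma, adjusted p = 0.0245), and its difference of -0.41 ± 0.13 at withdrawal did not pass (limma, adjusted p = 0.0961). The rise missed the threshold without withdrawal replicate 2 or 3 or day 7 replicate 2 or 4 (limma, adjusted p from 0.0679 to 0.107), and with only the 2 groups in the fit (0.0707).

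Oasl2, a relative of the oligoadenylate synthetases with ubiquitin-like domains, measured 5.32, 5.36, 5.33 and 4.86 in the control arrays, 5.84, 5.81 and 5.54 at withdrawal, 4.69, 4.83, 4.99 and 5.30 at day 3 and 5.30, 4.82, 5.25 and 5.53 at day 7. The withdrawal arrays were the 3 highest of all 15. It fell by 0.78 ± 0.18 from withdrawal to day 3 (limma, adjusted p = 0.0344), whereas its withdrawal difference from control of 0.51 ± 0.18 did not pass (limma, adjusted p = 0.137). The fall was lost without any withdrawal array or without day 3 replicate 1, 2 or 3 (limma, adjusted p from 0.0506 to 0.127), and with only the 2 groups in the fit (0.0751).

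The other type I genes above the floor did not pass in any comparison. Ifit1 averaged 5.60 ± 0.19, 5.71 ± 0.21, 5.34 ± 0.37 and 5.50 ± 0.47 (SD) in the 4 groups, so that its withdrawal mean was the highest, as for Oasl2. Ifit3 averaged 4.54 ± 0.79, 4.27 ± 0.51, 4.31 ± 0.34 and 4.75 ± 0.40, and its control arrays alone ran from 3.61 to 5.52, wider than any difference between its group means. Both encode partners of Ifit2 in a complex that binds RNA lacking host cap methylation. Ifit1, Ifit2 and Ifit3 lie close together on chromosome 19, and their highest group means were at withdrawal, day 7 and day 7.

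The group means of the gamma-type genes ran more alike. The 7 that were tested all had a lower mean at withdrawal than in control, with a median difference of -0.43 and a range from -0.72 to -0.18, against a median of -0.01 over all genes. All 7 again had a lower mean at day 3 than in control (median -0.34), and all 7 had a higher mean at day 7 than at withdrawal (median 0.26) and than at day 3 (median 0.30). Only Gbp3 passed the threshold, once. The median at withdrawal rested in part on single arrays: it was -0.66 without withdrawal replicate 1 and -0.22 without withdrawal replicate 2.

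Gbp3, a guanylate-binding protein of the family that coats and breaks pathogen-containing vacuoles, measured 3.70, 3.59, 4.05 and 3.91 in the control arrays, 3.56, 3.15 and 3.11 at withdrawal, 3.55, 3.35, 3.19 and 3.51 at day 3 and 3.72, 3.77, 3.86 and 3.63 at day 7. The withdrawal and day 3 arrays were all below the control and day 7 arrays, with withdrawal replicate 1 just under the lowest control array. Gbp3 fell by 0.54 ± 0.14 at withdrawal (limma, adjusted p = 0.0381), and its difference of 0.48 ± 0.14 between day 7 and withdrawal did not pass (limma, adjusted p = 0.101; 0.0493 without withdrawal replicate 1). The fall missed the threshold without control replicate 1, 3 or 4 or withdrawal replicate 2 or 3 (limma, adjusted p from 0.0534 to 0.152), with only the 2 groups in the fit (0.127) and with the trend and robust options of eBayes (0.0599).

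Gbp7, of the same family, measured 6.32, 6.25, 6.28 and 6.39 in the control arrays, 5.47, 5.59 and 5.71 at withdrawal, 5.36, 5.69, 5.70 and 6.29 at day 3 and 6.80, 6.65, 5.05 and 5.75 at day 7. Control and withdrawal did not overlap and each was narrow, while the day 7 arrays split into 2 above every control array and 2 below. Its withdrawal difference was -0.72 ± 0.32 and did not pass in the model of 4 groups (limma, adjusted p = 0.262), whose common spread for this gene includes the wide day 7 group (SD 0.82). With only the 2 groups in the fit the adjusted p was 0.0102.

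Iigp1, an immunity-related GTPase that disrupts parasite vacuoles, measured 5.07, 5.15, 4.57 and 4.78 in the control arrays, 5.04, 4.02 and 4.35 at withdrawal, 4.82, 4.59, 5.04 and 4.95 at day 3 and 5.59, 5.54, 4.97 and 5.24 at day 7. Withdrawal replicate 1 sat among the control and day 7 arrays, and the other two were below every array of the other groups. Its difference of 0.87 ± 0.22 between day 7 and withdrawal, the largest of this family, missed the threshold (limma, adjusted p = 0.0602). With all arrays kept it passed under centring on the median of the genes tested (0.0338), further quantile normalization (0.0475), a filter on low genes (0.0421) and the trend and robust options (0.0443). It also passed without withdrawal replicate 1 (0.0141) or day 7 replicate 3 (0.0384). Igtp, Irgm1 and Irgm2, further GTPases of this family that act in vacuole control and autophagy, differed between withdrawal and control by -0.25, -0.18 and -0.48, and none passed. Iigp1, Igtp and Irgm2 were each lowest at replicate 2 within withdrawal and at replicate 3 within day 7. Irgm1 was also lowest at withdrawal replicate 2, and Gbp7 at day 7 replicate 3.

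The shared probe set of Gbp2 and Gbp2b went against its family at withdrawal. It measured 4.94, 5.34, 5.10 and 4.98 in the control arrays, 5.65, 5.55 and 4.86 at withdrawal, 4.64, 4.75, 4.96 and 5.12 at day 3 and 5.58, 5.59, 5.13 and 5.23 at day 7. Of the withdrawal arrays 2 were above all control arrays and 1 was below them all. It was not tested, and signal from the 2 genes cannot be told apart.

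**Figure D2:**
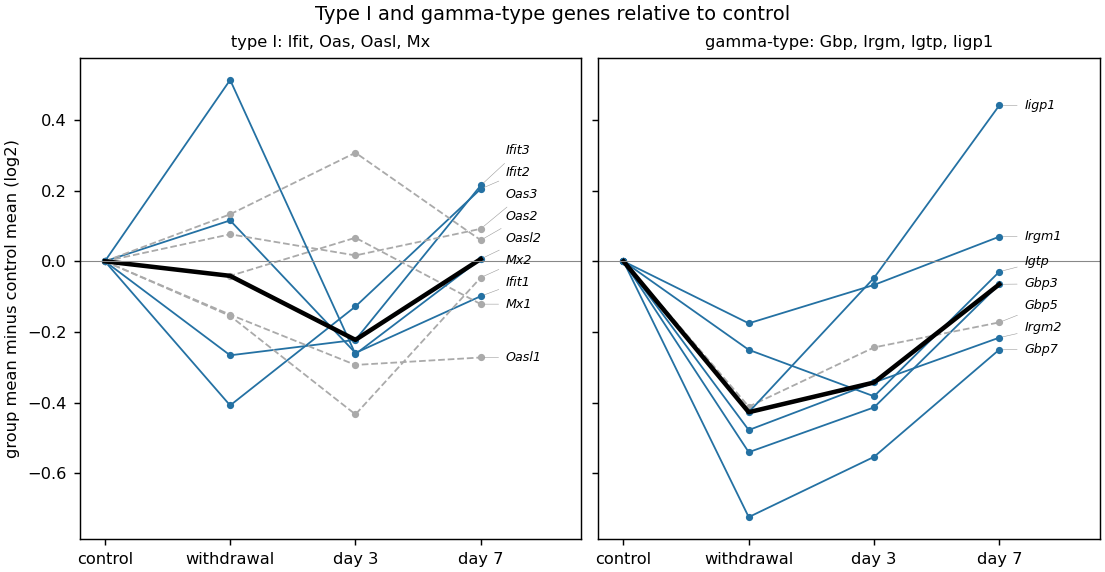
Group mean minus control mean (log2) for each of the 9 type I genes (left) and 7 gamma-type genes (right), with the median as a black line and genes near the floor as dashed grey lines. The gamma-type median is -0.43 at withdrawal and -0.34 at day 3, and the type I median is -0.04 and -0.22.

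Set side by side, the families differed mainly at withdrawal. The type I median difference from control was -0.04 there, with 4 of 9 means higher and 5 lower, against -0.43 with 7 of 7 lower for the gamma-type genes. At day 3 both medians were below control, at -0.22 and -0.34, and at day 7 both were close to it, at 0.01 and -0.07. The type I median from withdrawal to day 7 was -0.07, and it changed sign when arrays were centred on the median of the genes tested or when low genes were left out; the gamma-type median kept its sign under these settings. This contrast between the families has no test, and 5 of the 9 type I genes were near the floor. The per-array median had a pooled SD between replicates of 0.33 for the type I and 0.20 for the gamma-type genes. The shared probe set of Gbp2 and Gbp2b, outside these medians, averaged 5.35 at withdrawal and 5.09 in control. Among the 4 type I genes above the floor, the withdrawal means were higher than control for Oasl2 and Ifit1 and lower for Ifit2 and Ifit3.

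**Figure D3:**
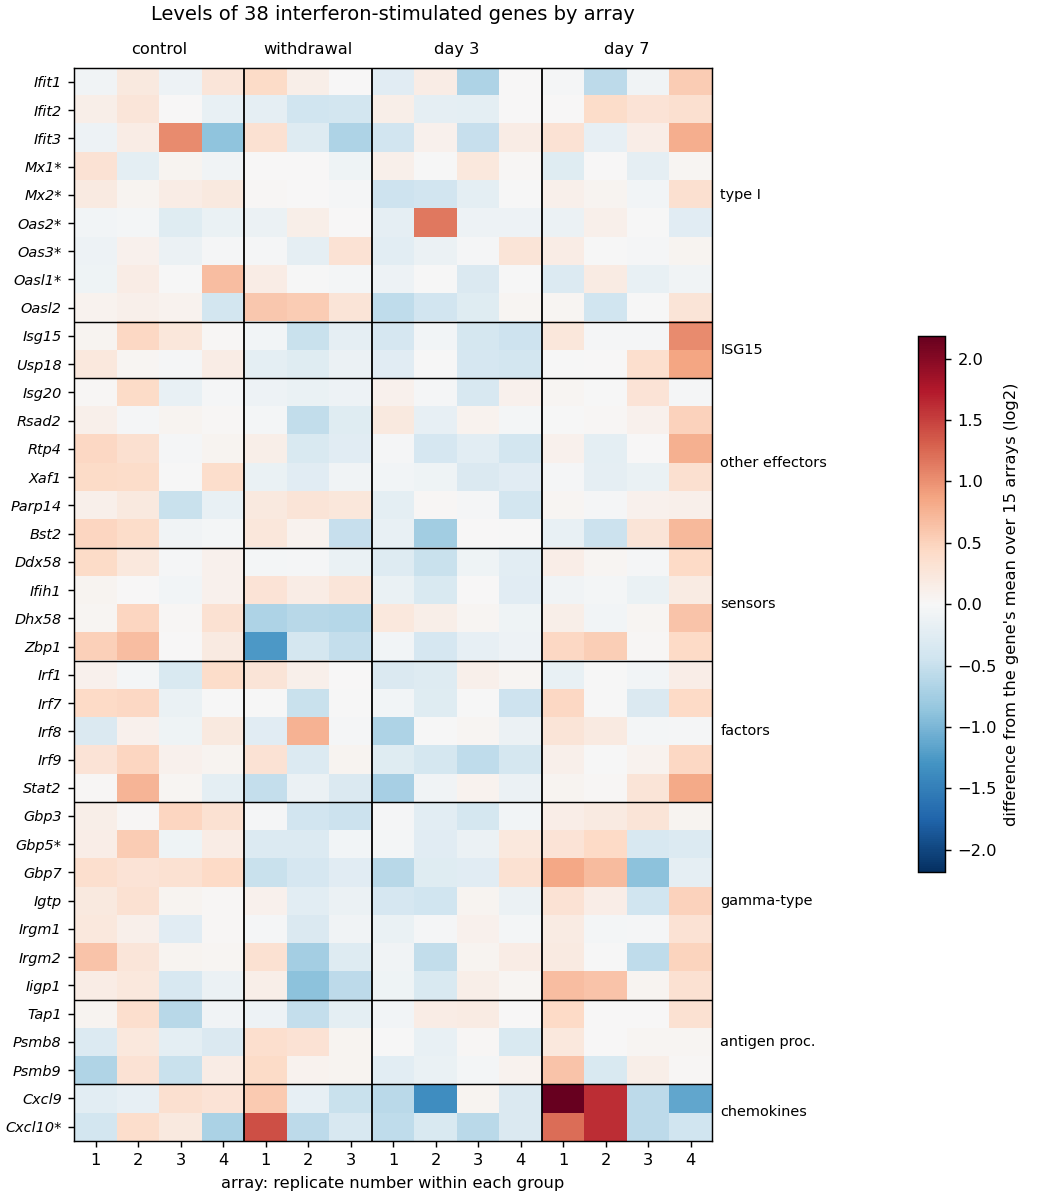
Level of each of the 38 tested genes (rows, by role) in each of the 15 arrays (columns), as the difference from the mean of the gene over all arrays (log2, colour). Asterisks mark genes with a mean over all arrays near the floor. Zbp1 and Dhx58 are low in all 3 withdrawal arrays, and Cxcl9 is high in day 7 replicates 1 and 2.

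Isg15, a ubiquitin-like protein that is coupled to other proteins, and Usp18, the protease that removes it and also blocks the type I interferon receptor, followed each other. Isg15 measured 4.61, 5.0, 4.79 and 4.58 in the control arrays, 4.49, 4.05 and 4.36 at withdrawal, 4.18, 4.49, 4.16 and 4.09 at day 3 and 4.80, 4.53, 4.53 and 5.58 at day 7. All withdrawal and day 3 arrays were below all control and all day 7 arrays, by a small margin, and day 7 replicate 4 stood highest. Its difference between day 7 and day 3 of 0.63 ± 0.20 did not pass (limma, adjusted p = 0.487). Usp18 averaged 4.61 ± 0.12, 4.30 ± 0.07, 4.26 ± 0.17 and 4.82 ± 0.41 (SD), was likewise apart between withdrawal and control and between day 7 and both earlier times, and did not pass (lowest adjusted p = 0.168, day 7 against withdrawal).

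The other 6 antiviral effectors did not pass in any comparison (limma), with 9 of 36 differences at an unadjusted p under 0.05. Xaf1, a factor that antagonises an inhibitor of apoptosis, measured 7.53, 7.51, 7.10 and 7.50 in the control arrays, 6.96, 6.86 and 7.03 at withdrawal, 7.06, 7.02, 6.79 and 6.85 at day 3 and 7.08, 6.91, 6.96 and 7.46 at day 7. All control arrays were above all withdrawal and day 3 arrays, and 3 of the 4 day 7 arrays were still below every control array. Its differences from control were -0.46, -0.48 and -0.30 at the 3 later times (limma, adjusted p = 0.0838, 0.174 and 0.804). Without control replicate 3, its lowest control array, the withdrawal difference was -0.56 and passed (0.0359). Rsad2 (viperin, which makes a chain-terminating nucleotide), Rtp4, Bst2 (tetherin, which holds budding virus at the membrane) and Isg20 (an exonuclease) had lower means at withdrawal than in control. Parp14, an ADP-ribosyltransferase, had a higher one (0.33, limma, adjusted p = 0.27).

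None of the 5 transcription factors passed (limma), with 5 of 30 differences at an unadjusted p under 0.05. Irf9, the DNA-binding part of the type I complex, measured 5.08, 5.24, 4.86 and 4.83 in the control arrays, 5.08, 4.47 and 4.83 at withdrawal, 4.51, 4.38, 4.21 and 4.39 at day 3 and 4.88, 4.76, 4.85 and 5.22 at day 7. Its day 3 arrays were below all control and all day 7 arrays, and its lowest point came at day 3, not at withdrawal. The difference of -0.63 ± 0.14 between day 3 and control had the lowest adjusted p of any of these genes in that comparison, 0.0951 (limma). Its partner Stat2 averaged 5.41 ± 0.41, 4.93 ± 0.19, 5.04 ± 0.35 and 5.55 ± 0.37 (SD), and Irf7, which amplifies interferon production, 4.53 ± 0.31, 4.18 ± 0.28, 4.15 ± 0.20 and 4.49 ± 0.37. Irf1, the factor induced by interferon gamma, and Irf8, a factor of myeloid cells, had slightly higher means at withdrawal than in control (0.10 and 0.19).

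The antigen-processing genes split. Tap1, a subunit of the peptide transporter, measured 4.98, 5.28, 4.31 and 4.85 in the control arrays, 4.81, 4.39 and 4.70 at withdrawal, 4.87, 5.08, 5.09 and 4.93 at day 3 and 5.35, 4.93, 4.93 and 5.26 at day 7. The day 3 and day 7 arrays were above all withdrawal arrays, and the control arrays spanned most of the range. No difference passed (lowest adjusted p = 0.242, day 7 against withdrawal). Psmb8 and Psmb9, subunits of the immunoproteasome, had higher means at withdrawal than in control (0.39 and 0.34; limma, adjusted p = 0.143 and 0.511). The difference of Psmb8 was 0.52 without control replicate 2 and then passed (0.0265). Psmb9 and Tap1 lie head to head on chromosome 17, with RefSeq promoters that overlap, and their withdrawal means were on opposite sides of control.

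The chemokines Cxcl9 and Cxcl10, which draw T cells through their shared receptor, varied widely between the day 7 arrays. Their ranges there were 3.3 and 2.2, wider than any difference between their group means. Cxcl9 measured 3.84, 3.89, 4.42 and 4.38 in the control arrays, 4.64, 3.89 and 3.59 at withdrawal, 3.48, 2.71, 4.14 and 3.76 at day 3 and 6.26, 5.69, 3.49 and 2.93 at day 7. Day 7 replicates 1 and 2 were the 2 highest of the 15 arrays and replicate 4 the second lowest. Cxcl10 measured 3.48 and 3.87 in the same 2 day 7 arrays, 1.69 and 1.82 in the other two, and 3.66 in withdrawal replicate 1, while all other arrays lay between 1.58 and 2.65. The largest mean difference of Cxcl9, 1.07 ± 0.58 between day 7 and day 3, did not pass (limma, adjusted p = 0.752).

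From day 3 to day 7, the 31 genes above the floor all had a higher mean at day 7, by a median of 0.30, whereas 5499 of all 10413 genes above the floor did, with a median difference of 0.01. No gene passed the threshold in that comparison, among these or on the whole array, where 1516 genes had an unadjusted p under 0.05 (7.07%). Of the 38 genes, 11 did, led by Irf9 (0.56 ± 0.14, limma, adjusted p = 0.355). In 6 genes, Isg15, Irf9, Usp18, Ddx58, Gbp3 and Zbp1, all day 7 arrays were above all day 3 arrays, where 1.81% of all genes were apart in that direction; 0 were apart downward (1.74%). The count of higher means was 28 without day 7 replicate 4 and at least 30 without any other array. Against control, 28 of the 31 had a lower mean at day 3 and 17 a higher mean at day 7. These genes respond to shared factors and are not independent of one another.

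The day 7 arrays differed from each other in these genes more than in others. The median SD between arrays over the 31 genes was 0.29 at day 7, against 0.23 in control, 0.20 at withdrawal and 0.18 at day 3, while over all 10413 genes above the floor it was 0.16 at day 7 and between 0.16 and 0.17 in the other groups. Day 7 was the group of widest spread for 13 of the 31 genes, against 21.5% of all genes. Day 7 replicate 4 was the highest of its group in 19 of the 31, or 61.3%, against 23.9% of all genes above the floor. That array was highest for Isg15 and Usp18, for 3 of 4 type I genes (Ifit1, Ifit3 and Oasl2) and for 5 of 6 other effectors, and it was the lowest for Cxcl9.

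**Figure D4:**
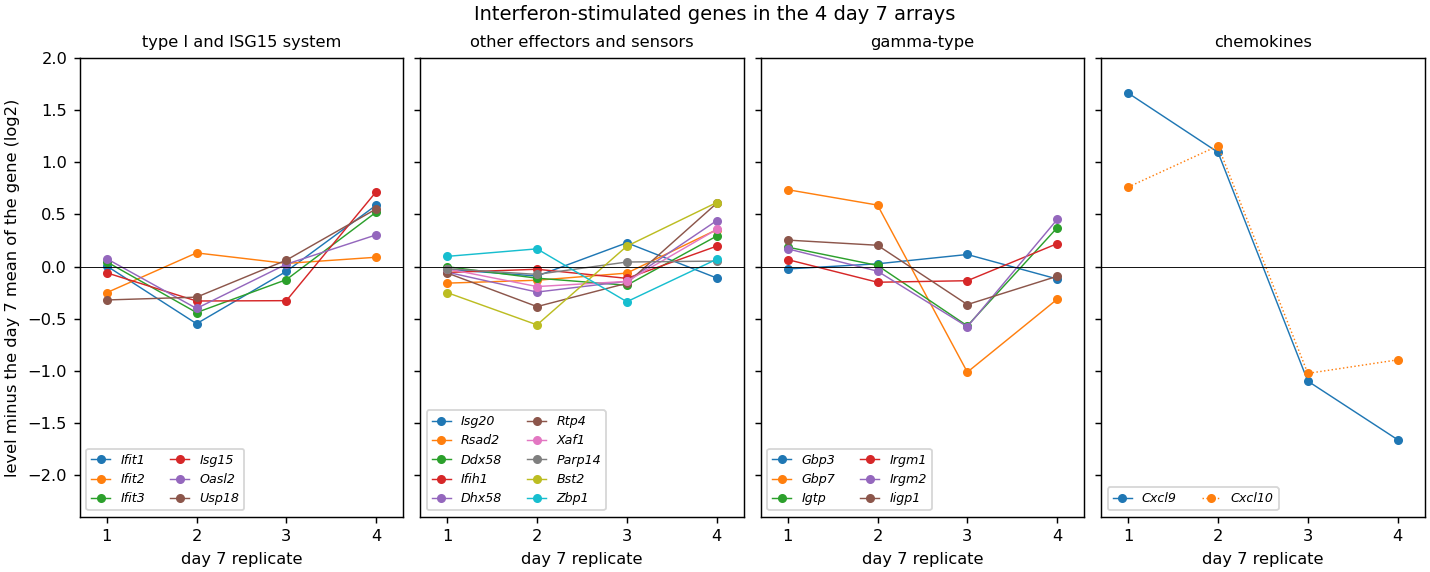
Level minus the day 7 mean of the gene (log2) in each of the 4 day 7 arrays, for genes above the floor by role and for Cxcl10 (dotted, near the floor in 3 groups). Isg15, Usp18 and 3 of 4 type I genes peak in replicate 4, as do Igtp, Irgm1 and Irgm2. Cxcl9, Cxcl10 and Gbp7 are highest in replicates 1 and 2.

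Cxcl9, Cxcl10 and Gbp7 were high in day 7 replicates 1 and 2 instead, and all 3 antigen-processing genes were highest in replicate 1. Replicate 3 was the lowest for 4 of the 6 gamma-type genes above the floor. Thus 3 of 4 type I genes and the ISG15 system peaked in a different array from the chemokines and Gbp7. Replicate 4 was also the highest for 3 of the 6 gamma-type genes above the floor (Igtp, Irgm1 and Irgm2). The same array was highest for 3 of 4 sensors and 3 of 5 transcription factors. Ifit2 was highest in replicate 2 and Iigp1 in replicate 1, so the split did not follow the type I and gamma-type families. Ifng itself, the interferon gamma gene, measured 1.97, 0.96, 1.37 and 1.19 in these arrays, all near the floor. The summed linear level of 12 macrophage marker genes was 1338, 1071, 1678 and 1142 in replicates 1 to 4, that of 10 endothelial markers 1226, 1291, 1259 and 1509, and that of 8 natural killer cell markers, 7 of them near the floor, 39.96, 32.41, 26.9 and 31.04. Endothelial markers were thus highest in replicate 4 and natural killer markers in replicate 1. The sum of 5 adrenal medulla markers was 4667 and 4676 in replicates 1 and 2 and 6558 and 5483 in replicates 3 and 4, and that of 7 T cell markers, 6 of them near the floor, was 110.6 and 81.94 against 130 and 121.9. Both sums were thus lower in the 2 arrays in which Cxcl9, Cxcl10 and Gbp7 were high. The T cell sum rested mostly on its 1 marker above the floor, at 6.32, 5.96, 6.83 and 6.71 (log2) in replicates 1 to 4. The other 6 T cell markers, near the floor, were together not lower in replicates 1 and 2. The part of these markers in the pattern was not tested. At withdrawal, replicate 1 was the highest array for 22 of the 31 genes (71%), against 36.7% of all genes above the floor.

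Upstream of these genes, most genes of the interferons themselves measured near the floor. Of 19 measured ligand genes 16 were near the floor in every group, including Ifnb1 (0.72 to 0.88 as group means) and Ifng (1.03 to 1.37), and none passed in any comparison (limma), with 9 of 114 differences at an unadjusted p under 0.05. The exceptions, Ifna15, Ifnl2 and Ifnl3, were at most at 4.06 and did not pass. The receptor and kinase genes did not pass in any comparison either, with 6 of 54 differences at an unadjusted p under 0.05. Ifnar1 averaged 7.23, 7.16, 7.28 and 7.26, Ifnar2 8.70, 8.74, 8.75 and 8.73, Ifngr1 6.48, 6.73, 6.64 and 6.50, and Ifngr2 7.30, 7.50, 7.40 and 7.36 in the 4 groups in order. Jak1 (7.91 to 7.98), Jak2 (6.41 to 6.60), Tyk2 (3.15 to 3.50) and Il10rb, a subunit of the interferon lambda receptor (7.82 to 8.15), were above the floor in all groups, and Ifnlr1, the other subunit, was near it. Receptor transcripts were thus present in all groups.

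Among 6 negative regulators, Ptpn6, a phosphatase of blood cells that damps cytokine receptors, rose by 0.77 at withdrawal (limma, adjusted p = 0.0131) and fell by 0.78 to day 3 (limma, adjusted p = 0.02). Of 11 measured genes of the pathways that induce interferon, Sting1, the adaptor of DNA sensing, and Tlr7, a receptor for single-stranded RNA, rose at withdrawal by 0.74 and 0.88 (limma, adjusted p = 0.0331 and 0.0372), and 0 fell. Over all genes 2.49% rose and 1.81% fell at withdrawal.

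A list of 26 other measured interferon-stimulated genes had falls and rises among its calls as well, with 15 of 26 means lower than control at withdrawal (median -0.02) against 27 of 38 (median -0.23) for the genes above. Ifi27, a mitochondrial protein, measured 9.50, 9.38, 9.47 and 9.42 in the control arrays, 8.79, 8.76 and 8.73 at withdrawal, 9.37, 9.18, 9.43 and 9.33 at day 3 and 9.45, 9.30, 9.40 and 9.32 at day 7. It was lower in all 3 withdrawal arrays than in any other array. It fell by 0.68 at withdrawal (limma, adjusted p = 0.000293) and rose by 0.57 and 0.61 to day 3 and day 7 (limma, adjusted p = 0.00243 and 0.00175). Trim25, the ubiquitin ligase that activates RIG-I, fell by 0.56 at withdrawal (limma, adjusted p = 0.00446) and rose by 0.50 to day 7 (limma, adjusted p = 0.016). Samhd1, which depletes nucleotides in myeloid cells, rose by 0.32 at withdrawal and fell by 0.38 to day 3 (limma, adjusted p = 0.0322 and 0.0197), and Slfn5 fell by 0.59 to day 3 (limma, adjusted p = 0.0481). Thus 2 of the 26 fell and 1 rose at withdrawal, where 1.81% of all genes fell and 2.49% rose. From day 3 to day 7 the mean was higher in 23 of 26, with 0 past the threshold. A list of 18 other genes known for induction by interferon gamma held further Gbp genes and MHC class I components. Of these, 0 passed in any of the 6 comparisons, and 8 of their 108 differences had an unadjusted p under 0.05. At withdrawal 9 of the 18 had a higher mean than control and 9 a lower one (median 0.0043). From day 3 to day 7 the mean was likewise higher in 9 and lower in 9 (median -0.001). The shared direction of the tested gamma-type genes was thus not seen in this list.

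Cell markers moved at the same time, where 2.49% of all genes rose and 1.81% fell at withdrawal. Of 12 macrophage markers 8 rose at withdrawal (median difference 0.83), and their summed linear level ran from 896.9 to 1032 in control, 1976 to 2400 at withdrawal, 1241 to 1800 at day 3 and 1071 to 1678 at day 7. Of 10 endothelial markers 2 fell (median -0.37), with sums of 1242 to 1353, 934.9 to 1010, 1253 to 1401 and 1226 to 1509. Of 8 markers of steroid-making cortex cells 5 fell, with sums of 7846 to 8147, 5033 to 5595, 7279 to 8093 and 7508 to 8000, so the labelled tissue was present in every array. The withdrawal groups of all 3 lists were apart from the rest. So were those of Zbp1 and Dhx58, downward, and that of Oasl2, upward. The part of the cell markers in the differences of the interferon-stimulated genes was not tested. In whole tissue, fewer cells of a type and less RNA per cell cannot be told apart.

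Markers of lymphocytes were low throughout. The mean over all arrays was near the floor for 6 of 7 T cell, 7 of 8 natural killer cell, 5 of 5 B cell and 6 of 6 plasmacytoid dendritic cell markers, and for 5 of 7 neutrophil and 3 of 6 dendritic cell markers. Of 12 glucocorticoid-induced genes such as Fkbp5 and Tsc22d3, 0 passed at withdrawal or in any other comparison (limma), with 16 of 72 differences at an unadjusted p under 0.05. At withdrawal 9 of the 12 had a higher mean than control and 3 a lower one (median difference 0.24). In 5 of them all withdrawal arrays were above all control arrays, where 8.15% of all genes were apart in that direction, and 0 were apart downward.

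On the whole array, 534 genes rose and 387 fell at withdrawal, and the split depended on the scaling. When each array was centred on the median of the genes tested, 341 rose and 853 fell. That centring moves the median difference of all genes at withdrawal from -0.006 to -0.12. The same centring gave 374 rises and 162 falls for day 3 against withdrawal (293 and 190 otherwise), 391 and 134 for day 7 against withdrawal (210 and 194) and 18 and 35 for day 3 against control (19 and 9). The directions given above for the 6 genes that passed were the same under every scaling tried. The scalings moved the median difference of all genes by little beside the smallest difference that passed, -0.42 in Ifih1. A reversal was therefore unlikely from the start.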

How the data were processed

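The authors deposited log2 expression values for 32736 probe sets on 15 arrays, and per the submitters' processing notes RMA and oligo were the tools. The sources used here do not give versions, probe filters or the annotation used for summarising. RMA corrects background, brings the arrays to 1 distribution and summarises probes, which compresses small changes near the floor.

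Gene names came from the platform annotation: 22399 probe sets had 1 symbol, 1607 several and 8730 none. Only probe sets with 1 symbol were tested, and the one with the highest mean was kept per gene, leaving 21439 genes. Differences were fitted with limma 3.58.1 in R 4.3.3 (lmFit, eBayes), all 15 arrays in 1 model of the 4 groups, with Benjamini-Hochberg adjustment per comparison. The script was tested on simulated data. No 2 arrays were identical (lowest correlation 0.9824), and the number of arrays limits the precision.

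The members and gene lists were chosen with earlier results of these data known, so their counts are descriptions. Values in every array are given for members past the threshold and for the member of each role with the largest difference. Gbp7, Cxcl10, the shared Gbp2 probe set and Ifi27 were added after their values were seen. Other pathway genes are named when they passed, or as ligands, receptors or kinases. Promoters are those of RefSeq (GRCm38.p6), whose build was used for these sequences alone. For Mx1, Mx2, Oas2, Rtp4, Usp18, Zbp1, Iigp1, Dhx58 and Parp14 no promoter was used here. Alternatives were other scalings of the arrays, other choices of probe set, a filter on low genes, trend and robust options, only the 2 groups compared, a replicate block and each array left out.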

Additional observations from a re-analysis of the deposited data

Results flagged for a closer look

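In groups of 4 arrays, 4 values stood far from the other 3 of their group, of 114 groups of a gene examined, where chance would mark about 5% of groups. Oas2, near the floor elsewhere, measured 3.04 in day 3 replicate 2 and 1.71 to 1.79 in the other day 3 arrays. The same array had a summed linear level of 403.2 for 7 neutrophil markers, against 32.09 to 39.24 in the other day 3 arrays. Oasl2 measured 4.86 in control replicate 4, against 5.32 to 5.36 in the other control arrays. Xaf1 measured 7.10 in control replicate 3, against 7.50 to 7.53 in the others. Psmb8 measured 6.28 in day 7 replicate 1, against 6.05 to 6.09 in the others. None of these 4 genes but Oasl2 passed the threshold in a comparison, and the part of the marker level was not tested.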

How the results depend on the processing

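No result reversed its direction among those with a test. With only the 2 groups compared in the fit, the genes past the threshold numbered 524 for withdrawal against control, 161 and 154 for day 3 and day 7 against withdrawal, 9 and 0 for day 3 and day 7 against control, where the model of 4 groups gave 921, 483, 404, 28 and 4. Of the interferon-stimulated genes, 1 then passed for day 3 and 0 for day 7 against withdrawal. Centring on the median of the genes tested, an alternative chosen after seeing the data, gave 53 genes for day 3 against control, and 5 interferon-stimulated genes each for withdrawal against control and day 7 against withdrawal, where Ifit2 and Xaf1 joined the former and Gbp3 and Iigp1 the latter. A filter on low genes gave 71 and trend and robust options 91 genes for day 3 against control, and the latter gave 2 for day 7 against control.

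The replicate numbers shared by the groups did not pair the arrays: 21 pairs of the same number correlated between -0.14 and 0.06 in their deviations from the group means. With the number as a replicate block, 544, 257, 221, 4 and 0 genes passed in the 5 comparisons in the order above, and 0 interferon-stimulated genes for day 3 against withdrawal; Dhx58 and Zbp1 passed in the other 2 comparisons with withdrawal, and Gbp3 and Ifit2 no longer did. Without 1 array at a time, genes past the threshold ranged from 459 to 774 at withdrawal against control, 209 to 389 for day 3 and 200 to 415 for day 7 against withdrawal, 6 to 27 and 0 to 9 for day 3 and day 7 against control, and 0 to 7 for day 7 against day 3. Interferon-stimulated genes past it ranged from 0 to 2 for day 3 and 2 to 5 for day 7 against withdrawal. The gamma-type median at withdrawal ranged from -0.66 to -0.22. Genes above the floor with a higher mean ranged from 2 to 6 for day 3 and 11 to 22 for day 7 against control. Leaving out an array also widens the errors. Near the floor, 7 of the 38 genes could hide a fall.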
